A study of Mus musculus with 8 samples.

Results

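The immunity-related GTPases of the Irg family were followed in spleen cells of 8-week-old male mice that did or did not carry the Yaa mutation. The 6 listed genes were Igtp (Irgm3), Irgm2, Irgm1, Ifi47, Iigp1 and Tgtp1, and every probe set that the platform annotation gives to exactly 1 of these symbols was taken. This gave 6 probe sets of 45037 that are not array controls: 1 each for Igtp, Irgm2, Irgm1 and Ifi47, and 2 for Iigp1. The 5 genes measured were among 18193 with a probe set of their own. Tgtp1 had no probe set of its own, since the 1 that carries its symbol carries a second gene as well, and it is not reported. The genes were chosen on the Yaa to wild-type difference of these same arrays, and on the split among the Yaa arrays, so both are given below as a description, and no test of them is used as support.

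The Yaa group held 4 samples of B6.SB-Yaa/J males, and the wild-type group held 4 samples of C57Bl/6J males. Yaa is a Y chromosome known to carry a copied piece of the X chromosome with Tlr7 in it. Each sample came from 1 mouse, except Yaa 3, which was a pool of 2 spleens; the source label of Yaa 2 speaks of males in the plural. All mice came from the Jackson Laboratories, and no treatment is given in the labels. Spleen tissue was teased apart and red cells were lysed before RNA was taken, so each array measured a mixture of cells, in which fewer cells of a type and less RNA per cell cannot be told apart. Values below are log2(signal + 16) after quantile normalization of the deposited MAS5 signals, and differences are Yaa minus wild type on that scale; the added 16 makes differences of dim probe sets look smaller.

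Irg proteins are GTPases that interferons, interferon-gamma above all, induce in mouse cells. Irgm1, Irgm2 and Igtp form the regulatory, or GMS, class, named for a methionine where other GTPases have a lysine; they sit on the membranes of the cell and hold the other class inactive there. Ifi47 (Irgd), Iigp1 (Irga6) and Tgtp1 (Irgb6) belong to the effector, or GKS, class, which gathers on the vacuoles of parasites such as Toxoplasma and breaks them open. In mice that lack Irgm1, stimulated lymphocytes die and some intracellular infections are not contained.

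The stretches before the start sites are shown as the sequence context of the 4 measured genes that have one, since interferon-activated factors are known to bind in such stretches; any link to the values below was not tested. RefSeq promoter windows (GRCm38.p6, 250 bases before to 50 after the start) were at hand for 5 of the 6 genes; Iigp1 is named only. The last 100 bases before the start are printed 5′ to 3′ in the direction of the gene, with the core of the interferon-stimulated response element (ISRE), which is GAAA, any 2 bases and GAAA again, in capitals. Igtp lies at chr11:58199456-58199555 on the plus strand, Irgm2 at chr11:58214877-58214976 on the plus strand, Irgm1 at chr11:48871421-48871520 on the minus strand and Ifi47 at chr11:49076487-49076586 on the plus strand.
Igtp: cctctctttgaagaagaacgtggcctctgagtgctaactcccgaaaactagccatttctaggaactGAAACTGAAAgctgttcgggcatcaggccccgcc
Irgm2: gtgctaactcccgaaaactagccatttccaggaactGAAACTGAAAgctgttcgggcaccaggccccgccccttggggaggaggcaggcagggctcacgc
Irgm1: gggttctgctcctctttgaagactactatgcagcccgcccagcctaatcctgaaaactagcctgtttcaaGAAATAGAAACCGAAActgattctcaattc
Ifi47: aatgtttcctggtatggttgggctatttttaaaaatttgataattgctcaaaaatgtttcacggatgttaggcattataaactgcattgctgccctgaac

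Igtp and Irgm2 held the same ISRE core, GAAACTGAAA, beginning at position -34 in Igtp and -64 in Irgm2, where -1 is the base before the start. Irgm1 held 2 overlapping cores, GAAATAGAAA at -30 and GAAACCGAAA at -24, and the Ifi47 window held none. A core on either strand was found in 3.44% of 32851 RefSeq windows of 300 bases. The core of the gamma-activated site (GAS), which is TTC, any 3 bases and GAA and so reads alike on both strands, stood just before the ISRE core in Igtp (TTCTAGGAA at -45) and Irgm2 (TTCCAGGAA at -75), was absent from the windows of Irgm1 and Ifi47, and was found in 8.3% of all windows. The Igtp and Irgm2 windows aligned over 270 columns with 90.4% identity, against 71.4% over 77 columns for Igtp and Irgm1. The Tgtp1 window, not printed because the gene has no values here, held the same 2 strings, GAAACTGAAA at -77 and TTCCAGGAA at -88. A match describes letters and is not evidence of binding.

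Igtp and Irgm2 were the members that stood apart in Yaa, and they did so in Yaa 1, Yaa 3 and Yaa 4 but not in Yaa 2. For Irgm2, a regulator found on the Golgi, the deposited signals were 548, 109, 346 and 481 in Yaa 1 to 4, against 93.5, 116, 124 and 92.8 in wild type 1 to 4. On the log2 scale this was 9.04, 6.82, 9.03 and 9.13 in Yaa, against 6.80, 6.74, 7.17 and 6.68 in wild type. Yaa 1, 3 and 4 lay close together and far above all wild-type samples, while Yaa 2 lay among the wild-type values, so the groups overlapped. Single samples stood 4.58-fold (Yaa 1), 0.98-fold (Yaa 2), 4.53-fold (Yaa 3) and 4.86-fold (Yaa 4) over the wild-type mean. The group means were 8.50 ± 1.12 in Yaa and 6.85 ± 0.22 in wild type (SD, n = 4 each), a difference of 1.66 ± 0.48 (SE).

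Igtp, a regulator needed for resistance to Toxoplasma, had deposited signals of 1250, 485, 717 and 1157 in Yaa 1 to 4, against 409, 465, 419 and 394 in wild type 1 to 4. Normalized values were 10.21, 8.89, 9.97 and 10.37 in Yaa, against 8.71, 8.56, 8.83 and 8.60 in wild type. Again Yaa 2 was near wild type, but its value lay just above the highest wild-type sample, so the groups did not overlap. The means were 9.86 ± 0.67 in Yaa and 8.68 ± 0.12 in wild type (SD, n = 4 each), a difference of 1.18 ± 0.29 (SE), or 2.27-fold. Over the 8 samples Igtp and Irgm2 had a Pearson correlation of 0.99, given as a description of points that share their arrays.

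Irgm1, the third regulator, did not share this size of difference. It measured 8.93, 8.36, 8.61 and 8.94 in Yaa 1 to 4, against 8.65, 8.56, 8.64 and 8.39 in wild type 1 to 4. Yaa 2 was the lowest of all 8 samples and the groups overlapped. The means were 8.71 ± 0.28 in Yaa and 8.56 ± 0.12 in wild type (SD, n = 4 each), a difference of 0.15 ± 0.16 (SE), which was -0.07 with the values as deposited, 0.27 without Yaa 2 and 0.07 without Yaa 4.

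**Figure D1:**
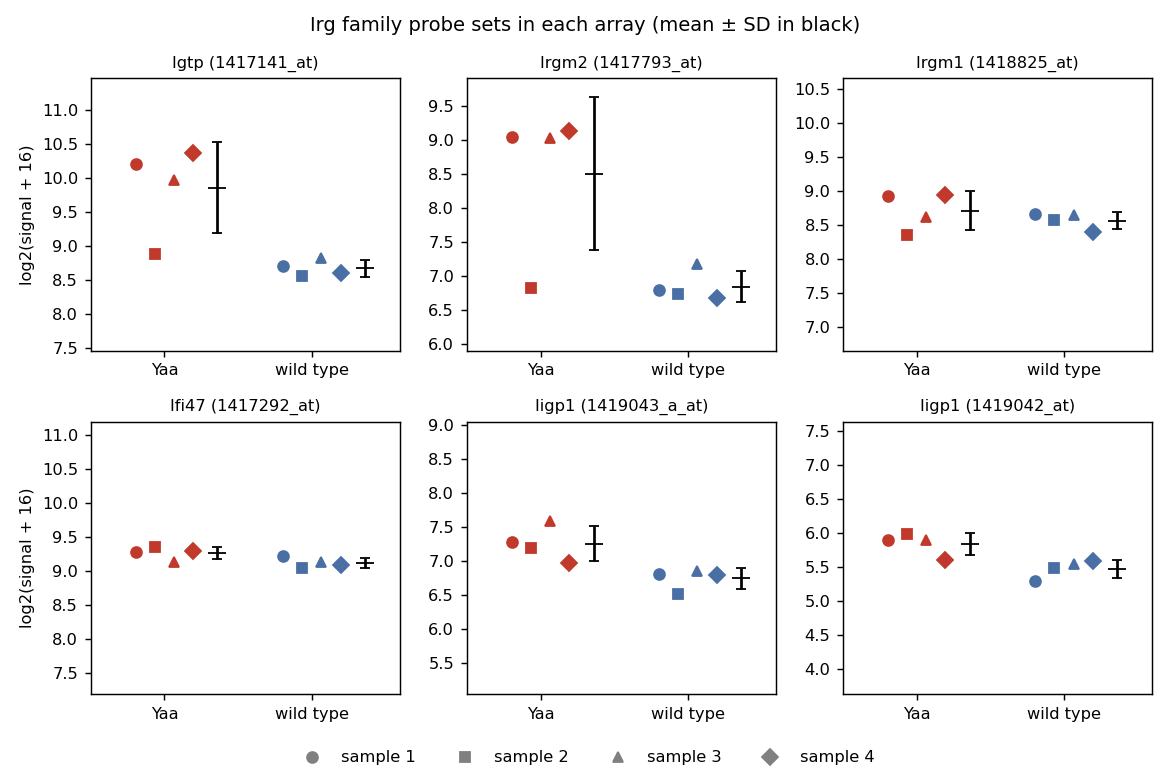
Log2(signal + 16) of the 6 Irg family probe sets in each array, with 4 Yaa samples (red) left of 4 wild-type samples (blue), marker shape giving the sample number and black marks the mean ± SD; every panel spans the same number of log2 units. For Irgm2, Yaa 1, 3 and 4 lie between 9.03 and 9.13, with Yaa 2 at 6.82 among the wild-type samples.

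The effector-class members behaved differently across the Yaa samples. Ifi47, an effector that loads onto parasite vacuoles, measured 9.27, 9.35, 9.13 and 9.29 in Yaa 1 to 4, against 9.21, 9.04, 9.13 and 9.09 in wild type 1 to 4. Here Yaa 2 was the highest of all samples and Yaa 3 lay within the wild-type range. The means were 9.26 ± 0.09 in Yaa and 9.12 ± 0.07 in wild type (SD, n = 4 each), a difference of 0.14 ± 0.11 (SE), which was -0.08 with the values as deposited.

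Iigp1, the effector whose structure and vacuole loading are best studied, was higher in all 4 Yaa samples by both of its probe sets. The brighter one measured 7.28, 7.20, 7.59 and 6.98 in Yaa 1 to 4, against 6.81, 6.52, 6.86 and 6.81 in wild type 1 to 4. The groups did not overlap and Yaa 2 lay amid the other Yaa samples; the means were 7.26 ± 0.25 in Yaa and 6.75 ± 0.16 in wild type (SD, n = 4 each), a difference of 0.51 ± 0.16 (SE), or 1.43-fold. The dimmer one had values of 5.89, 5.98, 5.89 and 5.61 in Yaa, against 5.29, 5.48, 5.54 and 5.59 in wild type, a difference of 0.37 ± 0.15 (SE), with Yaa 4 just above the highest wild-type sample. Its deposited signals ran from 30.1 to 53.2 in Yaa and from 22.3 to 34.9 in wild type, so the added 16 weighs on this value. The groups of both Iigp1 probe sets overlapped when the deposited values were used unscaled, and those of the dimmer one also did after median centring.

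**Figure D2:**
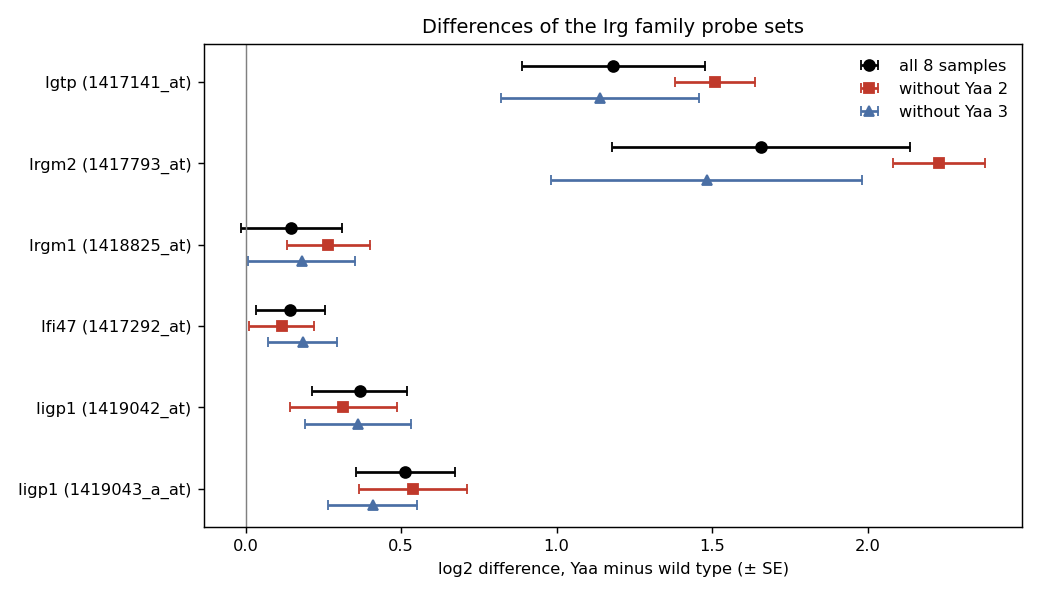
Log2 difference, Yaa minus wild type, of each Irg family probe set with its SE from limma, using all 8 samples (black circles), all but Yaa 2 (red squares) and all but Yaa 3 (blue triangles). Without Yaa 2 the difference of Irgm2 is 2.23 and that of Igtp 1.51, against 1.66 and 1.18 with all samples.

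All 6 probe sets passed the filter on dim signals, and all 6 had the higher mean in Yaa, as did 47.7% of the 22518 tested. limma, with Benjamini-Hochberg adjustment over all probe sets, called 0 of the 6 at an adjusted p under 0.05, where 0.00444% of the array was called. At an unadjusted p under 0.05 it listed 4 of 6, both Iigp1 probe sets, Igtp and Irgm2, where 4.73% of the array was listed. In 3 of 6 the groups did not overlap and Yaa was higher, where this held for 2.44% of the array. Because this contrast chose the genes, these counts are set beside the array and nothing is read from them.

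Leaving out single samples moved Igtp and Irgm2 most through Yaa 2. Without Yaa 2 the difference was 2.23 for Irgm2 and 1.51 for Igtp. As the split among the Yaa arrays was part of what the genes were chosen on, leaving out or down-weighting Yaa 2 selects on the outcome, and no calls of the members from such fits are given. Over all 8 single samples left out, the difference ran from 1.45 (without Yaa 4) to 2.23 for Irgm2 and from 1.01 (without Yaa 4) to 1.51 for Igtp.

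Over the 5 measured genes, with the brighter Iigp1 probe set standing for its gene, the mean log2 signal was 8.95, 8.12, 8.87 and 8.94 in Yaa 1 to 4, against 8.04, 7.88, 8.13 and 7.91 in wild type 1 to 4. Yaa 2 lay within the wild-type range. The difference was 0.73, and 0.27 over the 3 genes other than Igtp and Irgm2. The 3 regulators averaged 9.02 ± 0.68 in Yaa and 8.03 ± 0.14 in wild type, and the 2 measured effectors 8.26 ± 0.09 in Yaa and 7.93 ± 0.11 in wild type (SD, n = 4 each); the effector difference of 0.33 was 0.20 after median centring and 0.11 with unscaled deposited values. The regulator mean was 8.02 in Yaa 2 and 9.20 to 9.48 in the other Yaa samples, whereas the effector mean was 8.27 in Yaa 2 and 8.14 to 8.36 in the others. The regulator split came mainly from Igtp and Irgm2. Irgm1, of the same class, was at 8.36 in Yaa 2 and 8.61 to 8.94 in the others, and differed by only 0.15 from wild type.

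Tlr7, a receptor for single-stranded RNA inside the copied X segment, measured 8.02, 8.51, 7.62 and 7.86 in Yaa 1 to 4 by its brightest probe set, against 7.31, 6.96, 7.24 and 6.85 in wild type 1 to 4. By this probe set the groups did not overlap and Yaa 2 was the highest of all 8. Yaa 2 was also highest by the other tested Tlr7 probe sets, at 7.32 and 7.20. By the latter the groups overlapped, with Yaa 3 at 6.30 and wild type 4 at 6.35. Across the whole array, Yaa 2 and Yaa 3 stood apart at the 2 ends of the first principal component (-68.8 and 92.4), with the other 6 samples between -20.0 and 18.4.

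Igtp and Irgm2 are neighbours on chromosome 11, and Irgm1 and Ifi47 lie together in another cluster on the same chromosome. The 10 nearest genes with a tested probe set on each side of the Igtp and Irgm2 pair were set beside it by gene order. Of these 20, 10 were higher and 10 lower in Yaa, with a median difference of -0.0019 and a range of -0.48 to 0.61. The groups did not overlap for 1 on the higher side, Larp1, which binds messenger RNAs of the translation machinery (0.33), and 1 on the lower, H2aw, a histone gene (-0.48); such genes made up 2.61% and 1.86% of the 10340 tested. The neighbour with the highest difference, 4930438A08Rik, stood at 0.61, against 1.18 for Igtp and 1.66 for Irgm2.

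Cnot8, a deadenylase subunit gene 3 places before Igtp in this order, measured 8.75, 8.40, 8.77 and 8.83 in Yaa 1 to 4, against 8.47, 8.49, 8.48 and 8.47 in wild type 1 to 4. As for Irgm2, Yaa 1, 3 and 4 were above all wild-type samples and Yaa 2 was not. Its second probe set showed no such split, at 8.37, 8.04, 8.02 and 8.29 in Yaa, against 8.27, 8.10, 8.10 and 8.32 in wild type. Galnt10, also before Igtp in this order, measured 7.87, 6.72, 8.27 and 7.89 in Yaa 1 to 4 by its brightest tested probe set. Its wild-type values were 7.85, 7.53, 7.79 and 7.27. Yaa 1, 3 and 4 were again above all wild-type samples, Yaa 1 only just, and Yaa 2 was the lowest of all samples. Cnot8 and Galnt10 were singled out after their values were seen.

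The 21 genes around Irgm1 and Ifi47 had a median difference of 0.05, with 13 higher and 8 lower and 0 whose groups did not overlap. Thg1l, which encodes a tRNA-modifying enzyme and was also singled out after its values were seen, measured 6.25, 4.44, 6.84 and 6.86 in Yaa 1 to 4, against 5.47, 5.06, 4.90 and 5.53 in wild type 1 to 4. Yaa 1, 3 and 4 were above all wild-type samples and Yaa 2 was the lowest of the 8.

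**Figure D3:**
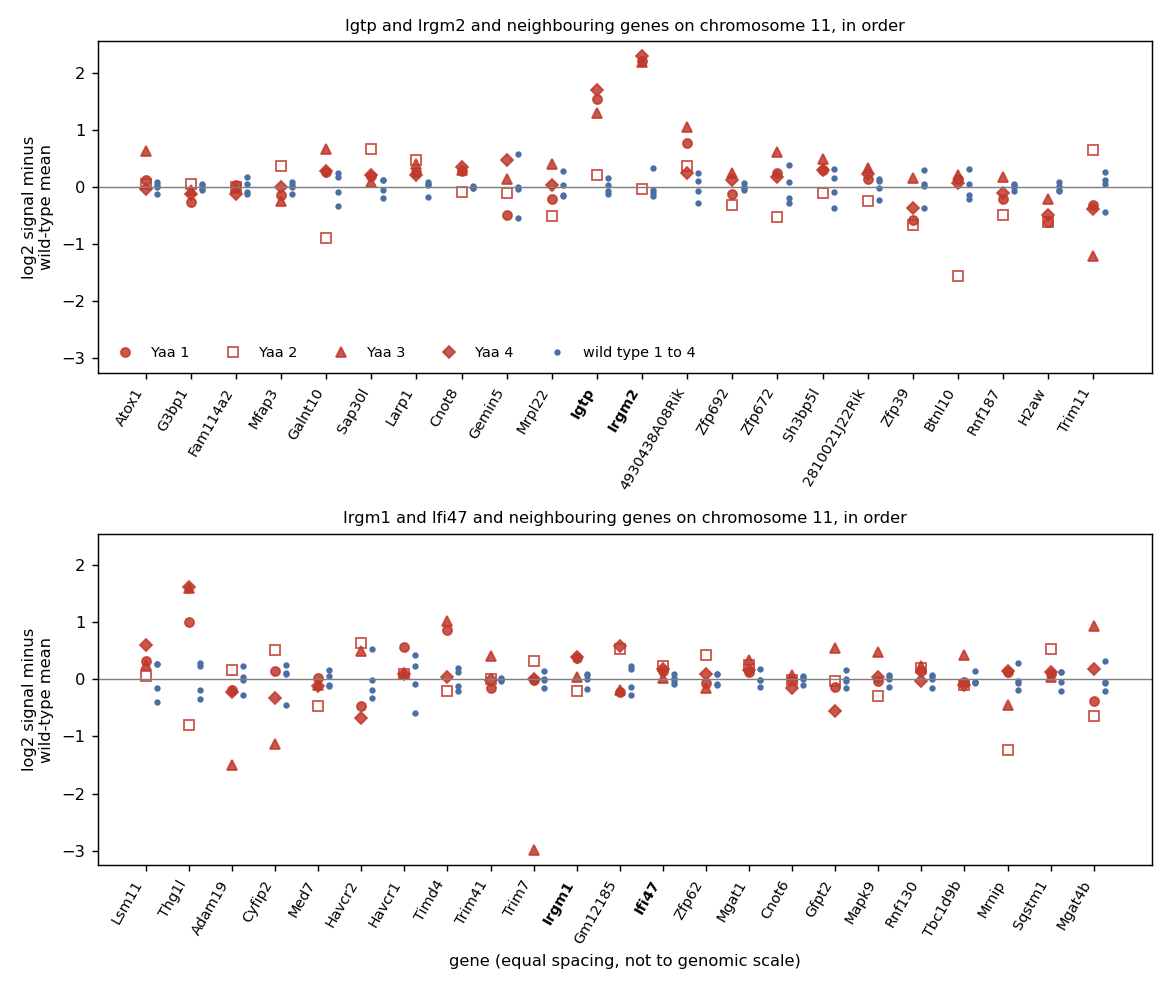
Log2 signal minus the wild-type mean for Igtp and Irgm2 (top) and Irgm1 and Ifi47 (bottom) with the genes around them on chromosome 11, spaced equally in gene order, for Yaa 1 to 4 (red, Yaa 2 as open squares) and wild type 1 to 4 (blue dots). In the top panel Igtp and Irgm2 lie between 1.29 and 2.28 in Yaa 1, 3 and 4, while Yaa 2 lies at 0.21 and -0.03.

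The genes that carry the interferon-gamma signal did not share the order of samples of Igtp and Irgm2. Of 12 tested genes of interferon-gamma signalling, 6 were higher and 6 lower in Yaa, where 45.9% of all 10340 tested genes were higher, and the median difference was 0.0073, against -0.02 over all genes. Ifng, the cytokine itself, measured 6.91, 6.82, 6.74 and 6.35 in Yaa 1 to 4, against 6.20, 6.64, 6.47 and 6.33 in wild type 1 to 4. Socs3, a feedback inhibitor, differed by 0.86 ± 0.36 (SE), Ifngr1, a receptor chain, by 0.36 ± 0.22 (SE), and Nmi, which binds STAT proteins, by -0.19 ± 0.14 (SE). The list was highest in Yaa 2, at 9.77, against 8.86 to 9.18 in the other Yaa samples and 8.86 to 9.27 in wild type, and its mean differed by 0.10, by 0.23 without Yaa 3, by -0.09 without Yaa 2 and by -0.09 with the values as deposited.

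Of 10 tested genes that interferon-gamma is known to induce, 5 were higher and 5 lower, with a median of -0.08. Cxcl10, a chemokine that attracts T cells, differed by 0.81 ± 0.27 (SE), Icam1, an adhesion ligand, by 0.49 ± 0.24 (SE), Cxcl9, a related chemokine, by -0.48 ± 0.29 (SE) and Ciita, the master regulator of MHC class II genes, by -0.47 ± 0.32 (SE). Ciita and the list as a whole were lowest in Yaa 3 (5.64 and 7.83), where B cell markers were lowest as well; the part of B cells in this was not tested. The guanylate-binding proteins, a related family of interferon-induced GTPases, had 4 of 5 tested genes higher, with a median of 0.23 and a list mean of 0.12 that was -0.09 with the values as deposited. Gbp3 differed by -0.33 ± 0.24 (SE), Gbp6 by 0.32 ± 0.31 (SE), Gbp8 by 0.26 ± 0.14 (SE) and Gbp7 by 0.23 ± 0.15 (SE), and Yaa 1 and Yaa 2 were the highest samples of the list, at 8.10 and 8.05.

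Of 14 tested genes that type I interferon is known to induce, 12 were higher and 2 lower, with a median of 0.36 and a list mean of 0.35 that was 0.16 with the values as deposited. Rtp4, a chaperone of membrane receptors, measured 8.99, 8.53, 8.43 and 8.70 in Yaa 1 to 4, against 7.66, 7.76, 8.03 and 7.26 in wild type 1 to 4, a difference of 0.99 ± 0.19 (SE). Oas1a, an RNA-sensing synthetase, differed by 0.58 ± 0.15 (SE), Oasl2 by 0.56 ± 0.23 (SE) and Bst2, which tethers virions, by 0.55 ± 0.22 (SE). All 4 Yaa samples were above all wild-type samples for Rtp4, Oas1a and Oasl2, Yaa 2 included. The list mean was lowest among Yaa samples in Yaa 2, at 7.75, against 8.04 to 8.22 in the others and 7.55 to 7.76 in wild type. In Yaa 2, Rsad2 (11.74) and Cmpk2 (8.47), the 2 lower genes, lay below all wild-type samples (12.82 to 12.98 and 9.66 to 10.02). Oas3 (6.77) and Xaf1 (8.25) did so as well. Like Rtp4, Oas1a and Oasl2, the genes Mx1 (6.66), Ifit3 (6.96) and Bst2 (8.06) lay above all wild-type samples in Yaa 2. The list mean in Yaa 2 therefore mixes genes below and genes above wild type. Erythroid markers were low in Yaa 2 as well, at 10.55, against 12.15 to 12.38 in the other Yaa samples. Their part in the values of Rsad2 and Cmpk2 was not tested. Of 8 tested genes of type I interferon signalling, 5 were higher and 3 lower, with a median of 0.05 and a list mean of 0.11 that was -0.11 with the values as deposited. Usp18, which removes Isg15 from proteins, measured 8.40, 6.98, 8.23 and 9.08 in Yaa 1 to 4, against 7.91, 7.87, 7.65 and 7.21 in wild type 1 to 4. Its lowest sample of all 8 was Yaa 2.

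The autophagy list held the conjugation machinery that places Irg GTPases on vacuoles, and also Sqstm1, Becn1 and Ulk1. Of its 13 tested genes, 6 were higher and 7 lower, with a median of -0.05. Map1lc3a, a ubiquitin-like LC3 protein, differed by 0.28 ± 0.12 (SE), Gabarapl2, of the same family, by -0.26 ± 0.21 (SE), Atg3, the conjugating enzyme, by 0.23 ± 0.14 (SE) and Atg5, part of the ligase, by -0.20 ± 0.15 (SE). Among cytokines and receptors that lead to interferon-gamma, 6 of 9 were higher, with a median of 0.15 and a list mean of 0.14 that was -0.03 with the values as deposited. Tbx21, a transcription factor of interferon-gamma producing lymphocytes, differed by 0.71 ± 0.30 (SE), Il15, a growth factor of natural killer cells, by 0.45 ± 0.25 (SE), Il12a, an interleukin-12 subunit, by -0.36 ± 0.57 (SE) and Il18rap, an interleukin-18 receptor chain, by 0.35 ± 0.39 (SE). Over these 7 lists limma called 0 of 71 tested genes, with 9 at an unadjusted p under 0.05, where 0% and 4.85% of all tested genes were called. With array weights it called 2, Rtp4 and Oas1a (0.793% of all tested genes). These weights were 0.22 for both Yaa 2 and Yaa 3, against 0.84 to 2.73 for the other samples. That fit therefore gives Yaa 2 and Yaa 3 little say, and nothing is read from its calls. Of further Irg relatives only Irgq, which lacks a working GTPase site, was tested; it differed by -0.12 ± 0.17 (SE).

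**Figure D4:**
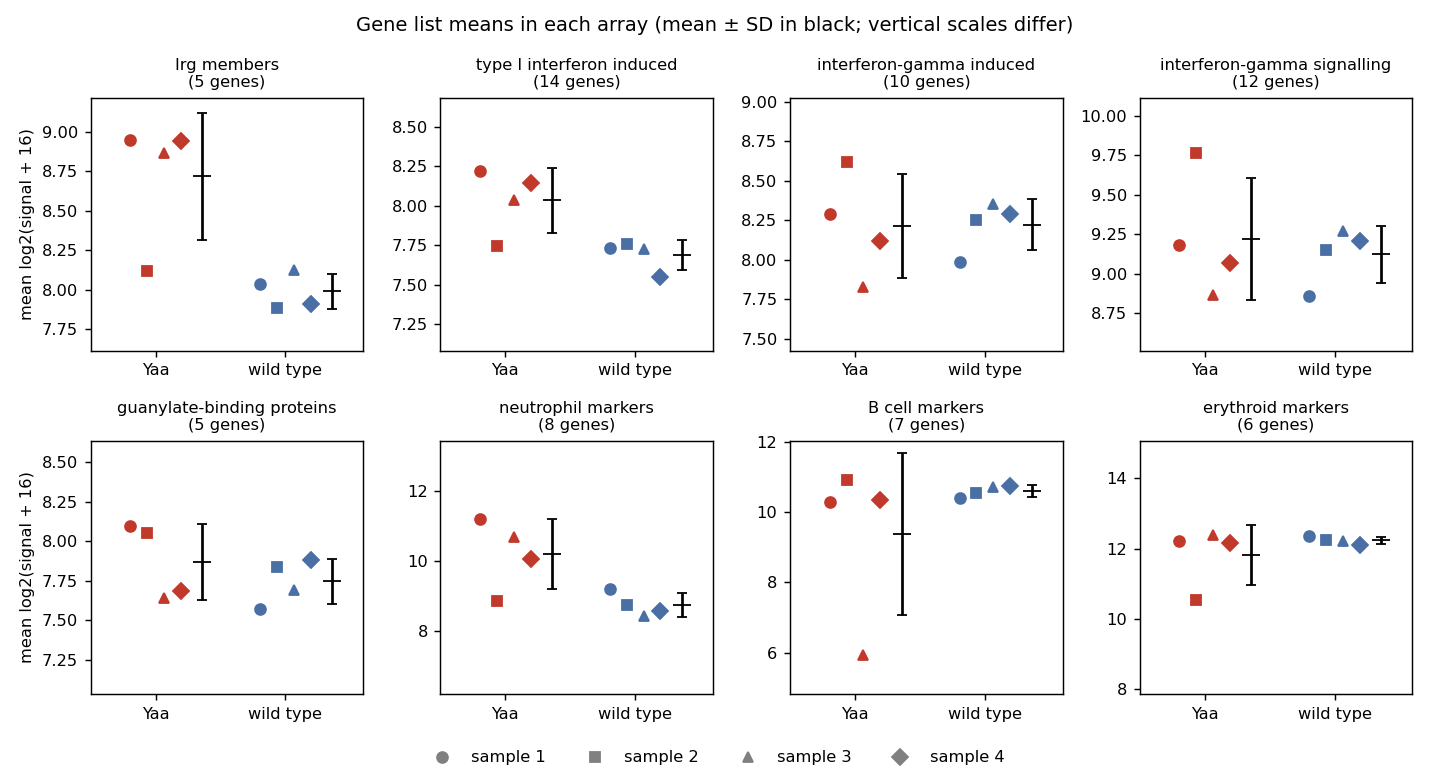
Mean log2(signal + 16) over the tested genes of the Irg members, 4 interferon-related lists and 3 cell type marker lists, in 4 Yaa samples (red) and 4 wild-type samples (blue), marker shape giving the sample number and black marks the mean ± SD; vertical scales differ between panels. Yaa 2 (square) lies at 8.12 for the Irg members and 8.86 for neutrophil markers, below the other Yaa samples in both, and at 9.77 for interferon-gamma signalling, above all others.

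All 8 tested neutrophil markers had higher means in Yaa, and their list measured 11.19, 8.86, 10.69 and 10.07 in Yaa 1 to 4, against 9.21, 8.76, 8.44 and 8.58 in wild type 1 to 4. The list mean was thus low in the same Yaa sample as Igtp and Irgm2, but its markers did not move together there. In Yaa 2, Ngp (10.07), Ltf (7.65) and Camp (8.21) lay below all wild-type samples. S100a9 (12.48), Mmp9 (7.29), Mmp8 (7.06) and Cxcr2 (5.85) lay above all wild-type samples, and S100a8 (12.26) lay within their range. The summed signal of the list was 12406 to 50673 in Yaa and 8173 to 13532 in wild type, and none of the markers was at 0. Over the 8 samples the list had a Pearson correlation of 0.91 with Irgm2 and 0.90 with Igtp, the highest of the 10 marker lists for both, given as a description of points that share their arrays. Within wild type the neutrophil list was highest in wild type 1 and lowest in wild type 3, while Irgm2 was highest in wild type 3. Irgm2 spanned only 6.68 to 7.17 in wild type, and nothing is read from this order. The part of neutrophils in the Igtp and Irgm2 difference was not tested.

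All 7 tested monocyte and macrophage markers were higher in Yaa, but Yaa 2, at 9.21, was above Yaa 4, at 8.73, and above all wild-type samples (8.54 to 8.67); the list had a Pearson correlation of 0.91 with Iigp1, 0.58 with Irgm2 and 0.54 with Igtp over the 8 samples. The part of these cells in the differences of the members was not tested. The summed signal of these markers was 6020 to 14236 in Yaa and 5044 to 5795 in wild type. B cell markers stood at 5.94 in Yaa 3, against 10.28 to 10.91 in the other Yaa samples and 10.39 to 10.76 in wild type, and T cell markers at 5.33 in Yaa 3, against 8.78 to 9.76 in the other Yaa samples and 8.63 to 9.26 in wild type. After quantile normalization Irgm2 stood at 9.03 and Igtp at 9.97 in Yaa 3, beside 9.04 and 10.21 in Yaa 1. Their deposited signals were 346 and 717 in Yaa 3, the array with the lowest trimmed mean, beside 548 and 1250 in Yaa 1. The part of B and T cells in these values was not tested. Erythroid markers stood at 10.55 in Yaa 2, against 12.15 to 12.38 in the other Yaa samples and 12.10 to 12.37 in wild type; their part in the values of Yaa 2 was not tested.

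The tested genes most like the mean of the 5 members over the 8 samples were Btd, which encodes the biotin-recycling enzyme biotinidase (Pearson r = 0.97), Akt1s1, an mTOR inhibitor (0.97), Zfp800, a zinc-finger gene (0.96), Ctsg, a granule protease of neutrophil precursors (0.96), and Mpo, the myeloperoxidase of the same granules (0.95). The member mean followed mainly Igtp and Irgm2. Ctsg measured 8.10, 5.78, 8.08 and 7.45 in Yaa 1 to 4, against 6.30, 5.64, 5.75 and 5.63 in wild type 1 to 4. Btd spanned a much smaller range, 6.53 to 6.73 in Yaa and 6.35 to 6.43 in wild type, without overlap. These likenesses were chosen as the highest of all tested genes and share the arrays they are measured on.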

How the data were processed

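RNA of spleen cells from 4 Yaa and 4 wild-type samples was measured on Affymetrix arrays, 1 array per sample. The deposited values are linear MAS5 signal intensities, as the submitters' processing notes name the tool; its version and scaling target: not given in the sources used here. Trimmed means (2% at each end left out) ran from 106 to 192 over the arrays, so arrays were quantile normalized and taken as log2(signal + 16). The dimmer part of the array, up to the median of the mean log2 values, was left out, which kept 22518 probe sets. limma 3.58.1 (R 4.3.3) compared Yaa with wild type, with eBayes on a variance trend and Benjamini-Hochberg adjustment. The procedure was tested on simulated data. Of several tested probe sets of a gene, the brightest stood for it in lists (10340 genes). Symbols were updated by Entrez ID to GRCm38.p6; promoter sequences are from RefSeq, same build. Figures used matplotlib 3.10.9.

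The members, lists and rules were chosen with earlier results of these data known. Named are all member probe sets, up to 4 genes per interferon or autophagy list with the largest differences, and the 5 genes most like the members; further genes are named as examples of a list or where singled out. RNA was extracted and hybridized separately for each animal apart from the pool, per the labels; the number of arrays limits precision. No label says what a shared replicate number stands for. Alternatives were other scalings, pseudocounts, filters, variance models, array weights, a replicate block and samples left out; leaving out Igtp and Irgm2 together, and counting groups that do not overlap under each alternative, were added after seeing the data.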

Additional observations from a re-analysis of the deposited data

Results flagged for a closer look

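In groups of 4, a sample was singled out when its gap to the nearest other as a share of the group's range exceeded Dixon's critical value, which chance gives in about 1 of 20 independent groups. It occurred in 10 of 52, but these groups share 8 arrays and some genes, so that share is not set against the 10. The entries of Yaa 2 for Irgm2 and the member mean restate the split that the genes were chosen on. Among members, Irgm2 stood at 6.82 in Yaa 2, against 9.03 to 9.13 in the other Yaa samples, the Irg member mean at 8.12 in Yaa 2, against 8.87 to 8.95, and the brighter Iigp1 probe set at 6.52 in wild type 2, against 6.81 to 6.86. Among the lists, type I interferon induced genes stood at 7.55 in wild type 4 (others 7.73 to 7.76) and the cytokines and receptors that lead to interferon-gamma at 6.66 in wild type 1 (others 6.97 to 6.99). Among markers, B cells stood at 5.94 in Yaa 3 (others 10.28 to 10.91), plasma cells at 6.82 in Yaa 3 (others 8.66 to 9.04), erythroid cells at 10.55 in Yaa 2 (others 12.15 to 12.38), and platelets and megakaryocytes at 7.33 in Yaa 3 (others 6.78 to 6.80) and at 7.37 in wild type 4 (others 7.22 to 7.24).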

How the results depend on the processing

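The mean difference of the 5 measured members, 0.73, kept its direction in all 25 alternatives and stayed between 0.50 and 0.96 in all but 1; it was 0.27 over members other than Igtp and Irgm2, and ran from 0.65 without Yaa 1 to 0.93 without Yaa 2. With the values as deposited, where the median difference of tested probe sets was -0.20, Ifi47 was -0.084 and Irgm1 -0.074; Igtp, Irgm2 and Iigp1 stayed positive in every alternative that kept them, and both Iigp1 probe sets dropped out at the upper-quartile filter. The number of probe sets called on the array, 1, was 143 with array weights, 105 without Yaa 2 and Yaa 3 together, 0 with a pseudocount of 1 (1031 at an unadjusted p under 0.05), 0 with the upper-quartile filter (486, with fewer probe sets tested) and 0 with the replicate block (736); over single samples left out it ran from 0 (without Yaa 1 or Yaa 3, with 1024 and 1563 unadjusted) to 30 (without Yaa 2), with 10 without Yaa 4. The cause of these moves was not tested. The same replicate number did not mark samples that deviate together (correlations of -0.37 to 0.02).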
